A study of Mus musculus with 6 samples.

Results

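The 10 genes described here encode heat shock chaperones of the cytosol (Hspa1a, Hspa1b, Hspa8, Hsph1, Dnajb1, Dnaja1, Hsp90aa1 and Hspb1) and of the mitochondrion (Hspd1 and Hspe1), and are 10 of the 21878 genes counted in mouse thyroid by RNA sequencing. They were chosen by gene name and family, with their counts in both groups of libraries already known, so the difference between the groups is given for them as a description and without a test. The design compared thyroid tissue of 3 Thy-Tet1+/+ mice (wild-type littermates, control 1 to 3) with thyroid tissue of 3 Thy-Tet1-/- mice (treatment 1 to 3), all female, 12 weeks old and given no treatment, and asked which transcripts differ when Tet1, which encodes a dioxygenase that oxidises methylated cytosine in DNA, is deleted in the gland. By design the deletion takes place in the follicular epithelial cells, whereas RNA was taken from whole gland, so transcripts of every other cell in the dissected tissue were counted too.

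Heat shock chaperones bind unfolded or unstable proteins and keep them from aggregating. HSP70 proteins take up short stretches of an unfolded chain in a cycle driven by ATP, J-domain proteins (HSP40) deliver the client and start ATP hydrolysis, and HSP110 releases ADP so that the cycle can begin again. HSP90 acts later, on clients that are nearly folded, while the mitochondrial chaperonin encloses a single imported protein in a barrel (HSP60) closed by a lid (HSP10). Many of these genes are switched on by heat shock factor 1, which binds inverted repeats of the triplet GAA (heat shock elements) near the start of transcription. Thyroid follicular cells synthesise thyroglobulin, a very large secreted protein, and so carry a heavy folding load, most of it in the endoplasmic reticulum.

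The libraries held 8867683 to 19950898 counted reads, and Thy-Tet1+/+ replicate 1 was the shallowest. Thyroglobulin (Tg), the defining follicular transcript, took 24.0% to 29.4% of the counts in Thy-Tet1+/+ and 21.2% to 24.0% in the other group. The other 9 follicular markers listed summed to 3237 to 4084 CPM and 3016 to 3298 CPM. Of all 10, 5 had a log2 difference below 0 and 5 above it, with no overlap between the groups for 3 that were lower and 2 that were higher in the group labelled Thy-Tet1-/-. Over all genes tested, 14.3% did not overlap in the lower direction and 12.5% in the higher. Tet1 itself went against the label. It was counted 48, 71 and 62 times in the Thy-Tet1+/+ libraries and 172, 162 and 241 times in the other 3, a log2 difference of 1.28 ± 0.27 (SE, edgeR quasi-likelihood test, unadjusted p = 0.00248, adjusted p = 0.101), and the gene-level count does not show which exons the reads came from. The second group is therefore called the group labelled Thy-Tet1-/- throughout. The extraction protocol in the labels speaks of retinas, although every label gives thyroid as the tissue. Skeletal muscle transcripts, listed with 10 markers that were all counted in every library, summed to 7369, 916 and 4782 CPM in Thy-Tet1+/+ replicates 1 to 3 and to 108, 8297 and 18.7 CPM in the group labelled Thy-Tet1-/-. In whole tissue, fewer cells of a type and less RNA per cell cannot be told apart.

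RefSeq promoter sequences (GRCm38.p6, the same assembly as mm10, 250 bases before to 50 after the start of transcription) were matched for 8 of the 10 genes, Hspa8 and Hsp90aa1 being the exceptions, and 13 start sites were listed for these 8. A heat shock element of 2 units, GAANNTTC or TTCNNGAA on either strand, lay in the windows of 7 of the 8 genes, that is all but Dnajb1. That is 87.5% of these genes, against 17.0% of all genes with a listed window and 13.9% of the genes tested here. Counted by window it was in 8 of 13, against 15.1% of all 32851 windows. The stricter element of 3 alternating triplets, GAANNTTCNNGAA or TTCNNGAANNTTC, which contains the shorter element, lay in the windows of 3 genes (Hsph1, Hspd1 and Hspe1), or 37.5%, against 0.662% of all genes. Windows of Hspa1a, Hsph1, Hspb1 and Hspd1 are printed, and capitals mark each match. Whether the element bears on the levels of these genes was not tested.
Hspa1a (mm10 chr17:34972107-34972406, minus strand): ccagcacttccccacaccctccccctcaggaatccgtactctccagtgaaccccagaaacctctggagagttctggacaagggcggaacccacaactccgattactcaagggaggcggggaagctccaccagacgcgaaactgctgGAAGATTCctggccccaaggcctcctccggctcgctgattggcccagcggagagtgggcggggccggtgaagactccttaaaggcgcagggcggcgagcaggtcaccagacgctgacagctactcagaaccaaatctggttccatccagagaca
Hsph1 (mm10 chr5:149636287-149636586, minus strand): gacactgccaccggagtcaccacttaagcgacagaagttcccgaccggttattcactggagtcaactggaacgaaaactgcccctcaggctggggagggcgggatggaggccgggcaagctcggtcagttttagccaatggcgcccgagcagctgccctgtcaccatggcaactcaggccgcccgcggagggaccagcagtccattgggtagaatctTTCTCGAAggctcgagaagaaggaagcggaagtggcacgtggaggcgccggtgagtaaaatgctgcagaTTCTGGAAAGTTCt
Hspb1 (mm10 chr5:135887669-135887968, plus strand): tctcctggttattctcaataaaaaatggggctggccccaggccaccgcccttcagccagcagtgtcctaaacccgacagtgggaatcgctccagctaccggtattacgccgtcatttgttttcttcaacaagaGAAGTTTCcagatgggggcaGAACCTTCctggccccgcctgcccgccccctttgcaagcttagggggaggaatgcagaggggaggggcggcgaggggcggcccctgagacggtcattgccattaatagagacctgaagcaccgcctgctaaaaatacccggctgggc
Hspd1 (mm10 chr1:55087883-55088182, minus strand): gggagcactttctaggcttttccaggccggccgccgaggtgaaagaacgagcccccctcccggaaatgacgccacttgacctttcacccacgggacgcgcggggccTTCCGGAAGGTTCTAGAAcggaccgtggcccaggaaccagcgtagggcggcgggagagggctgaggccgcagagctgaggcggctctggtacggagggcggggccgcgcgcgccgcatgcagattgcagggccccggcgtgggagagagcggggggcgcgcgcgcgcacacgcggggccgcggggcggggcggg

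The Hspa1a window holds a single 2-unit match, GAAGATTC, which begins 104 bases before the start site. The window of Hspa1b differs from it at 4 of 300 positions and holds the same 8 bases at the same distance. Hsph1 carries TTCTCGAA 33 bases before this start and the 3-unit stretch TTCTGGAAAGTTC from base 37 after it. Hspb1 carries a pair of 2-unit matches at 117 and 97 bases before the start, and Dnaja1 carries GAAAATTC 124 bases before the first of its starts. Hspd1 and Hspe1 lie head to head, and their windows share 285 bases. The 18-base stretch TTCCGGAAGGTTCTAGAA, with 4 triplets in alternating orientation, therefore lies in both of these windows. It begins 144 bases before this start of Hspd1 and, read on the other strand, 89 bases before that of Hspe1. Hspd1 has another listed start, with the window chr1:55088194-55088493, and that window holds no match. A match to these letters is a description of the sequence and no evidence that a factor was bound in these glands. The letters TATAAA were in none of the 13 windows, against 8.32% of all windows, while CCAAT (either strand) was in 8 of them, or 61.5%, against 37.4%.

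Hspa1a and Hspa1b encode the stress-inducible HSP70, which is kept low in unstressed tissue and made in quantity after heat or other damage. Hspa1a (mm10 chromosome 17, 34969190 to 34972156, minus strand, a single exon in GENCODE M21) was counted at 35.0, 29.7 and 26.7 CPM in Thy-Tet1+/+ replicates 1 to 3 and at 16.9, 21.6 and 22.4 CPM in the group labelled Thy-Tet1-/-, where CPM is the count scaled to library totals after TMM normalisation. Every library labelled Thy-Tet1-/- lay below every Thy-Tet1+/+ library. The means were 30.5 ± 4.18 and 20.3 ± 2.96 CPM (SD, n = 3 each), a log2 difference of -0.59 ± 0.17 (SE). Hspa1b (34956436 to 34959238, also a single exon) was counted at 96.0, 74.5 and 53.9 CPM in Thy-Tet1+/+ and at 25.9, 65.3 and 49.2 CPM in the other group, with a log2 difference of -0.67 ± 0.36. Here the groups overlapped, because replicate 2 labelled Thy-Tet1-/- stood above Thy-Tet1+/+ replicate 3. Of the 50-base words of the longest Hspa1a transcript, 58.8% also occur in Hspa1b, so how the counting divided reads between the pair is uncertain. Summed to 1 gene, they gave 131, 104 and 80.6 CPM against 42.8, 86.9 and 71.5 CPM, overlapping, with a log2 difference of -0.65 ± 0.29. The ratio of Hspa1b to Hspa1a counts ran from 2.02 to 2.74 in Thy-Tet1+/+ and from 1.53 to 3.03 in the other group, so the non-overlap of Hspa1a alone did not carry over to the sum.

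Hspa8 encodes the constitutive cytosolic HSP70 (HSC70), which also uncoats clathrin vesicles. It was the most abundant of the 10 (chromosome 9, 40800984 to 40810087, plus strand), at 925, 636 and 1067 CPM in Thy-Tet1+/+ and 742, 636 and 696 CPM in the group labelled Thy-Tet1-/-. The difference of the means, 876 ± 220 against 692 ± 53.1 CPM, came from Thy-Tet1+/+ replicates 1 and 3, and replicate 2 was as low as the lowest library of the other group. The log2 difference was -0.34 ± 0.21. Hspa8 is a gene with many processed copies, and 73.2% of the 50-base words of its longest transcript also occur in other annotated genes, while 70.0% of the words occur in the copy Gm15459, which has no count of its own in the table.

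Hsph1 (chromosome 5, 149614287 to 149636376, minus strand) encodes HSP110 (HSP105), a nucleotide exchange factor for HSP70. Its counts were 136, 53.6 and 87.5 CPM in Thy-Tet1+/+ and 51.5, 59.7 and 49.7 CPM in the group labelled Thy-Tet1-/-. This was the largest log2 difference of the 10 genes, -0.78 ± 0.31, and also the widest spread within Thy-Tet1+/+ relative to the mean (92.3 ± 41.3 CPM, a coefficient of variation of 44.7%). The groups overlapped because Thy-Tet1+/+ replicate 2 lay below replicate 2 of the other group. None of the 50-base words of its longest transcript occurs in another annotated gene.

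Dnaja1 and Dnajb1 encode J-domain partners of cytosolic HSP70, the first farnesylated and active with HSC70, the second strongly heat-inducible. Dnaja1 (chromosome 4, 40722150 to 40737149, plus strand) was counted at 159, 130 and 160 CPM in Thy-Tet1+/+ and at 116, 115 and 110 CPM in the group labelled Thy-Tet1-/-. The groups did not overlap, and the second was tight, at 113 ± 3.39 CPM against 149 ± 17.3 CPM, with a log2 difference of -0.40 ± 0.12. Its exons share 608 bases with Smu1 on the opposite strand, and whether strand was used in counting is not given in the sources used here. Dnajb1 (chromosome 8, 83608193 to 83612653, plus strand) was counted at 58.4, 37.6 and 46.9 CPM in Thy-Tet1+/+ and at 40.0, 39.3 and 40.8 CPM in the other group. Replicate 2 of Thy-Tet1+/+ was the lowest of all 6 libraries, so the groups overlapped, and the log2 difference was -0.25 ± 0.17. The SD in the group labelled Thy-Tet1-/-, 0.736 CPM, was small beside the 10.4 CPM in Thy-Tet1+/+.

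Hsp90aa1 encodes the inducible cytosolic HSP90, which holds kinases and steroid receptors in a state ready for activation. The gene (chromosome 12, 110690605 to 110702728, minus strand) gave 522, 328 and 478 CPM in Thy-Tet1+/+ and 267, 257 and 283 CPM in the group labelled Thy-Tet1-/-. All 3 libraries of the second group lay below all 3 of the first, the means being 443 ± 102 and 269 ± 13.3 CPM, 1.65-fold higher in Thy-Tet1+/+ (log2 difference -0.72 ± 0.19). Among its 50-base words, 58.5% occur in other annotated genes, mainly the copy Gm12346, which was not counted separately.

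Hspb1 encodes HSP25, the mouse form of HSP27, a small heat shock protein that forms large oligomers and binds actin. It was counted (chromosome 5, 135887919 to 135889563, plus strand) at 29.4, 55.5 and 60.5 CPM in Thy-Tet1+/+ and at 52.9, 78.2 and 44.1 CPM in the group labelled Thy-Tet1-/-. The highest library was replicate 2 of the second group and the lowest was Thy-Tet1+/+ replicate 1, and the groups overlapped across most of their range. The log2 difference was 0.26 ± 0.32, smaller than its error.

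Hspd1 and Hspe1 encode HSP60 and its co-chaperonin HSP10, and are transcribed away from each other on chromosome 1 (Hspd1, 55077835 to 55088243, minus strand; Hspe1, 55088132 to 55091307, plus strand). Hspd1 was counted at 187, 131 and 178 CPM in Thy-Tet1+/+ and at 194, 158 and 140 CPM in the group labelled Thy-Tet1-/-, with means of 165 ± 29.7 and 164 ± 27.8 CPM and a log2 difference of -0.01 ± 0.19. Hspe1 was counted at 39.3, 45.6 and 63.3 CPM against 76.8, 56.9 and 59.9 CPM, and its log2 difference was 0.38 ± 0.21. Neither gene separated the groups. Their ratio, Hspd1 to Hspe1, was 4.75, 2.88 and 2.81 in Thy-Tet1+/+ and 2.53, 2.78 and 2.33 in the other group. The ratio did not overlap between the groups, narrowly, at 2.81 against 2.78, and Thy-Tet1+/+ replicate 1, the shallowest library, had the highest value. The annotated exons of the pair overlap by 112 bases on opposite strands, and other annotated genes hold 44.8% of the 50-base words of Hspd1 and 36.1% of those of Hspe1.

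**Figure D1:**
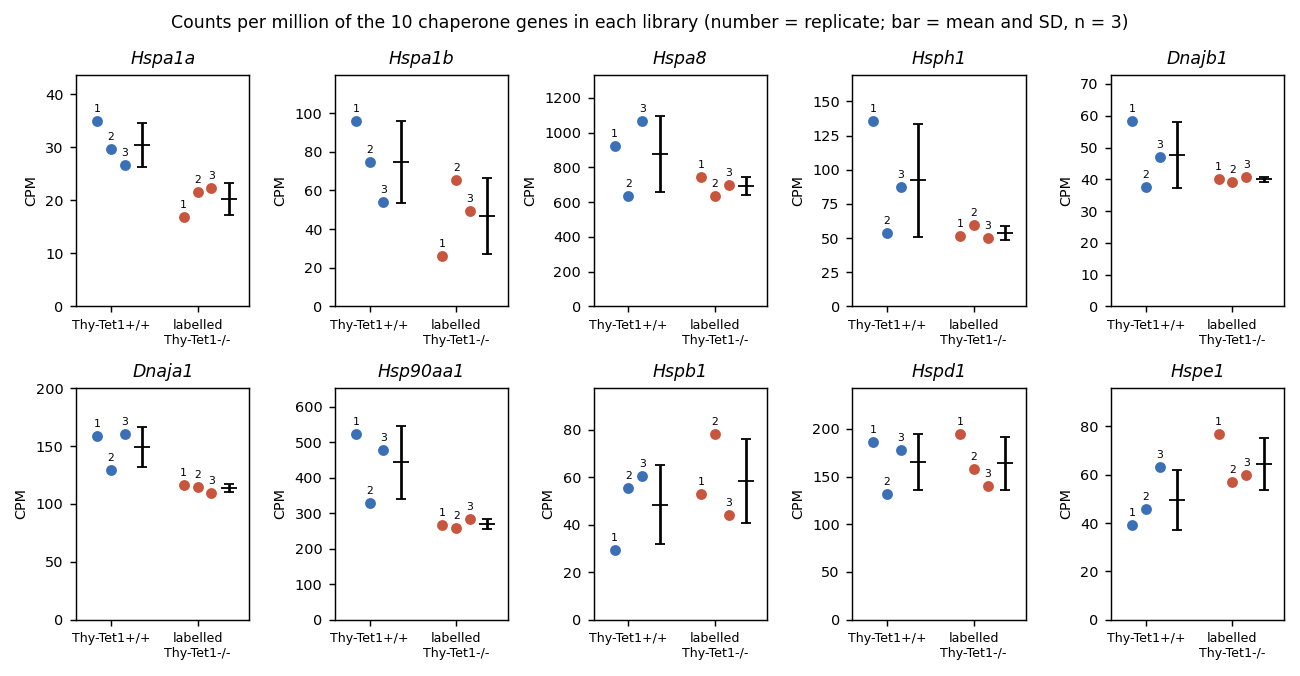
Each panel plots the scaled count (CPM, linear axis from 0) of 1 chaperone gene in the 3 Thy-Tet1+/+ libraries (blue) and the 3 libraries with the Thy-Tet1-/- label (red), numbered by replicate, with the mean and SD of each group as a bar. Hspa1a, Dnaja1 and Hsp90aa1 have groups that do not overlap, and in Hspa8, Hsph1 and Dnajb1 it is Thy-Tet1+/+ replicate 2 that lies among the red points.

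Taking the 10 genes as a group, 8 had a log2 difference below 0 and 2 (Hspb1 and Hspe1) above it, with a median of -0.37, beside a median of 0.00 over all 14143 genes tested (7063 below 0 and 7080 above). The groups did not overlap, with the libraries with the Thy-Tet1-/- label lower, for 3 of the 10. Over all genes tested, 14.3% did not overlap in that direction and 12.5% in the other, and since these genes were selected on this contrast, nothing is read from their share. Of the 8 cytosolic genes 7 lay below 0, with Hspb1 as the exception and a median of -0.49, and the mitochondrial pair lay at -0.01 and 0.38.

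The level of these differences depends on what is held constant. TMM centred the genes, whereas scaling to plain library totals moved the median of all genes to 0.187, leaving Tg out of the totals moved it to 0.103, and scaling to 10 follicular marker genes moved it to 0.205. The median of the 10 chaperone genes moved with it, to -0.18, -0.26 and -0.16. Among the follicular genes of the last scale Tshr stood apart, at 81.0 against 18.1 CPM (log2 difference -2.16). The others ran from -0.63 (Iyd) to 0.65 (Nkx2-1). That scale is the geometric mean of the 10 follicular genes, so it carries the change in Tshr and does not measure follicular content alone. The 7 cytosolic genes that were lower had a log2 difference below 0 under each of the 16 settings run, with ranges from -1.06 to -0.40 for Hsph1, -0.90 to -0.50 for Hsp90aa1, -0.49 to -0.19 for Dnaja1, -0.40 to -0.04 for Dnajb1, -0.53 to -0.14 for Hspa8, -1.001 to -0.405 for Hspa1b and -0.67 to -0.37 for Hspa1a. Hspe1 was above 0 under all 16, and Hspd1 and Hspb1 changed sign. Single libraries moved several of these values by over 1.5 times. Without Thy-Tet1+/+ replicate 1 the log2 difference was -0.40 for Hsph1, -0.08 for Dnajb1, 0.01 for Hspb1 and 0.24 for Hspe1. Without Thy-Tet1+/+ replicate 2 it was -0.53 for Hspa8 and -0.40 for Dnajb1, and without replicate 3 it was -0.17 for Hspa8, 0.45 for Hspb1 and 0.60 for Hspe1. Leaving out replicate 1 labelled Thy-Tet1-/- gave -0.41 for Hspa1b and 0.22 for Hspe1. Hspb1 was at -0.01 without replicate 2 of that group and at 0.42 without replicate 3, and Hspd1, close to 0, lay between -0.17 and 0.09 over the 6 omissions. With plain library totals no gene of the 10 had groups that did not overlap, and with follicular scaling 1 did. Leaving out Thy-Tet1+/+ replicate 2 raised that number from 3 to 6, and leaving out Thy-Tet1+/+ replicate 3 or replicate 2 labelled Thy-Tet1-/- raised it to 5. Groups with fewer libraries separate more easily for any gene. The share over all genes was not counted under these settings, so nothing is read from these numbers.

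**Figure D2:**
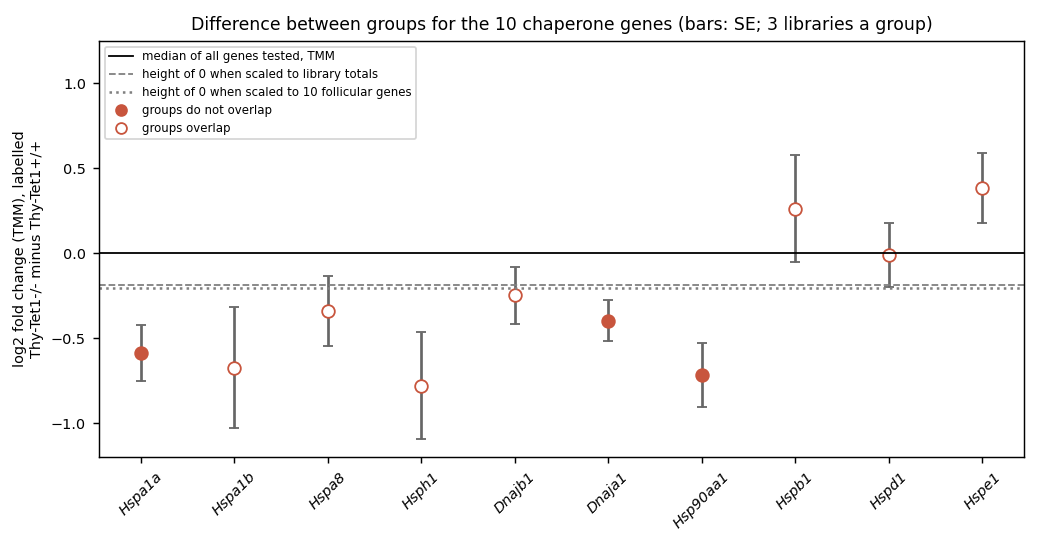
The log2 fold change (libraries with the Thy-Tet1-/- label minus Thy-Tet1+/+, TMM scaling) is plotted for each chaperone gene with its SE, filled where the groups do not overlap. The solid line is the median of all genes tested, and the broken lines show where 0 would lie under scaling to library totals or to 10 follicular genes, where 7 cytosolic genes still lie below it and Hspd1 is above it.

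Within Thy-Tet1+/+, replicates 1 and 3 both stood above replicate 2 for 6 of the 10 genes (Hspa8, Hsph1, Dnajb1, Dnaja1, Hsp90aa1 and Hspd1). Thy-Tet1+/+ replicate 1 had the highest value of all 6 libraries for 5 of the 10 genes and replicate 3 for 2, whereas replicate 2 was highest for none and lowest for 3. Measured as log2 CPM against each gene's own mean, the 8 cytosolic genes averaged 0.38, -0.01 and 0.25 in Thy-Tet1+/+ replicates 1 to 3, and -0.34, -0.07 and -0.22 in the group labelled Thy-Tet1-/-. Replicate 2 of Thy-Tet1+/+ and replicate 2 of the other group were thus the closest libraries of the 2 groups on this measure. The mitochondrial pair was arranged otherwise, at -0.15, -0.30 and 0.16 in Thy-Tet1+/+ and 0.36, -0.01 and -0.06 in the other group. Together the 10 genes took 0.208%, 0.143% and 0.206% of the counts in Thy-Tet1+/+ and 0.170%, 0.151% and 0.166% in the group labelled Thy-Tet1-/-.

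**Figure D3:**
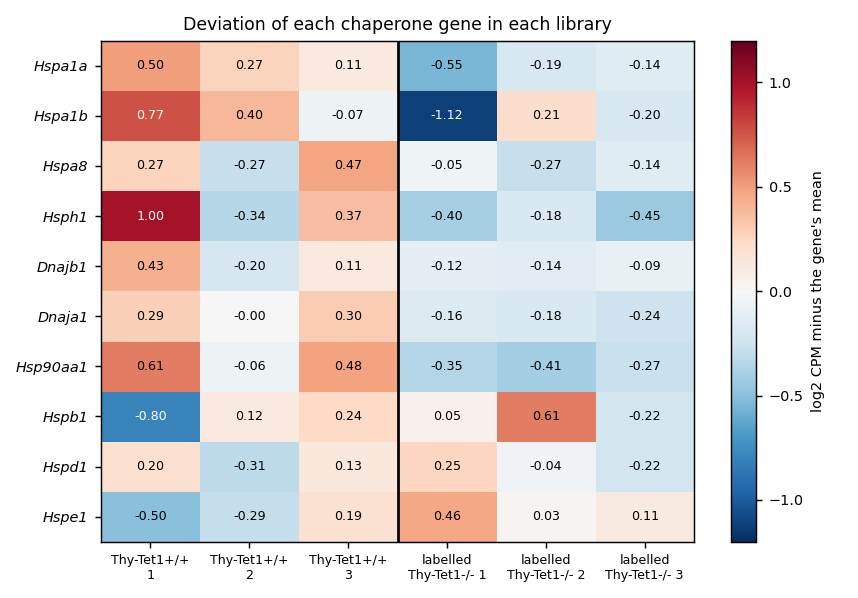
The heat map gives, for each chaperone gene (rows) in each library (columns), the log2 CPM minus the gene's mean over the 6 libraries, red above and blue below. Positive values gather in Thy-Tet1+/+ replicates 1 and 3 for the 7 genes from Hspa1a to Hsp90aa1, except Hspa1b in replicate 3 (-0.07), whereas in replicate 2 only Hspa1a and Hspa1b (0.27 and 0.40) of these 7 are above 0.

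Skeletal muscle transcripts were also high in Thy-Tet1+/+ replicates 1 and 3 and lower in replicate 2, and they were highest in replicate 2 labelled Thy-Tet1-/-. Among the libraries with the Thy-Tet1-/- label the muscle sum ran from 18.7 to 8297 CPM. In the same libraries Hsp90aa1 ran from 257 to 283 CPM, Dnaja1 from 110 to 116 CPM and Dnajb1 from 39.3 to 40.8 CPM. Hspa1b, Hsph1 and Hspb1 had their highest value of these 3 libraries in replicate 2, the one rich in muscle transcripts, at 65.3, 59.7 and 78.2 CPM. With the mean log2 level of the 10 muscle markers as a covariate, the median of the 10 chaperone genes was -0.33 and 7 lay below 0, Hsph1 moved from -0.78 to -0.51 and Hspa1b from -0.67 to -0.46. These values are a description, and the part of muscle in the chaperone levels was not tested. Parathyroid markers (3 genes) summed to 89.2 CPM in Thy-Tet1+/+ replicate 2 and to between 1641 and 12920 CPM in the other 5 libraries, and their part in the chaperone levels was not tested. Markers of lymphocytes and thymus, of which 4 of 9 passed the filter on low counts, summed to 502 CPM in replicate 3 labelled Thy-Tet1-/- and 121 CPM in Thy-Tet1+/+ replicate 1, with 2.49 to 7.17 CPM elsewhere, and their part was not tested either. Adipocyte markers, all 6 above 0 in log2 difference and 3 called higher (over 1.5-fold at an unadjusted p under 0.05), summed to 496, 215 and 153 CPM in Thy-Tet1+/+ and 1617, 740 and 356 CPM in the group labelled Thy-Tet1-/-, with overlap in each gene. Over all genes 3.66% were called lower and 5.54% higher, and by that p alone 10.2% were lower and 8.71% higher. Groups did not overlap for 14.3% in the lower and 12.5% in the higher direction. Of 6 fibroblast markers 1 was called higher, 2 were higher and 0 lower by that p alone, and 3 did not overlap (1 lower and 2 higher). The sums of these markers ran from 884 to 1112 CPM in Thy-Tet1+/+ and from 941 to 1123 CPM in the other group. Their part in the chaperone levels was not tested.

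Ratios of counts within a library do not depend on scaling. Hsp90aa1 to Hspd1 was 2.80, 2.50 and 2.69 in Thy-Tet1+/+ and 1.38, 1.63 and 2.03 in the group labelled Thy-Tet1-/-, with no overlap and with replicate 2 of Thy-Tet1+/+ now close to the other 2. Each library of the second group thus had a lower ratio of these counts than each Thy-Tet1+/+ library. Hsp90ab1, the constitutive HSP90, to Hsp90aa1 was 3.29, 4.35 and 3.22 against 4.66, 4.84 and 4.39, again without overlap, so the inducible form took a smaller share of the counts of the pair. Hspa9, which encodes the mitochondrial HSP70 (mortalin), to Hspd1 was 1.93, 1.84 and 1.82 against 1.51, 1.59 and 1.43. Hspa8 to the summed inducible pair was 7.06, 6.10 and 13.2 against 17.4, 7.33 and 9.74, and overlapped. These ratios, like that of Hspd1 to Hspe1, hold members selected on this contrast. The share of other gene pairs whose ratios separate the groups was not counted, so nothing is read from the separation.

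**Figure D4:**
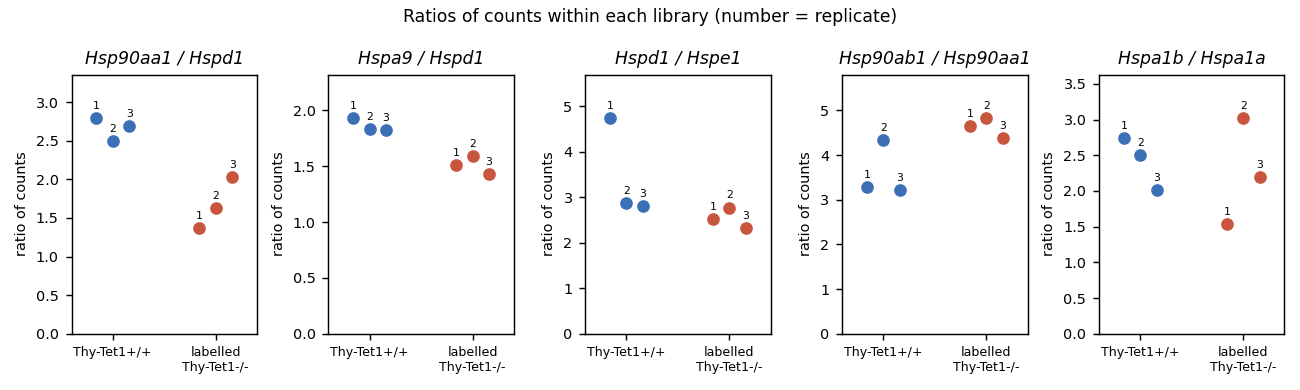
Ratios of counts of chaperone gene pairs in each library (linear axes from 0, blue Thy-Tet1+/+, red labelled Thy-Tet1-/-, numbered by replicate). The panels that set Hsp90aa1 or Hspa9 against Hspd1 and Hsp90ab1 against Hsp90aa1 separate the groups, that of Hspd1 to Hspe1 separates them narrowly (2.81 against 2.78) with Thy-Tet1+/+ replicate 1 at 4.75 far above, and that of Hspa1b to Hspa1a overlaps.

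To compare levels between genes, CPM was divided by the length of the longest annotated transcript (GENCODE M21). Per kilobase, Hspa8 was at 366 ± 91.8 CPM in Thy-Tet1+/+ (SD, n = 3) and Hsp90aa1 at 135 ± 31.0 CPM, and their ranges were apart from each other and from those of the rest. Hspd1 (68.2 ± 12.3), Hspe1 (63.8 ± 16.1) and Hspb1 (52.1 ± 18.0) followed and overlapped one another. Hspa1b (26.7 ± 7.51), Dnaja1 (26.6 ± 3.07), Hsph1 (24.3 ± 10.8) and Dnajb1 (15.9 ± 3.47) overlapped from neighbour to neighbour, as did Hspb1 with Hspa1b, and Hspa1a was lowest at 10.3 ± 1.41, apart from Dnajb1. Shared sequence limits this order, since how shared reads were counted is not given. Other genes hold 60.3% of the 50-base words of Hspa1a, 62.3% of Hspa1b, 73.2% of Hspa8 and 58.5% of Hsp90aa1. For Dnajb1 the share is 0.407%, for Hsph1 0%, and for the rest 18.7% (Dnaja1) to 51.6% (Hspb1). In the libraries with the Thy-Tet1-/- label the level of Hspe1, 83.4 ± 13.8 CPM per kilobase, was close to that of Hsp90aa1, 82.0 ± 4.05, where in Thy-Tet1+/+ the ranges of the pair were apart.

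Other genes of the chaperone network were listed by function, 94 in all, of which 93 passed the filter on low counts (Hspb3 did not). They were tested within the fit over all genes, and a gene was called where the change was beyond 1.5-fold at an unadjusted p under 0.05, the rule of the study. By it 3.66% of all genes tested were lower and 5.54% higher. In the network 5 genes were lower and 0 higher, and 23 were lower and 0 higher by an unadjusted p under 0.05 alone in edgeR and also 23 and 0 in DESeq2. That is 24.7% lower, where 10.2% of all genes were lower and 8.71% higher by the same rule. After adjustment over all genes none of the 93 was below 0.05 in edgeR (13 in DESeq2). The median log2 difference of the network was -0.21, with 75 of 93 below 0, and 35 did not overlap in the lower direction against 4 in the higher. That is 37.6% in the lower direction, where over all genes tested 14.3% did not overlap in that direction and 12.5% in the higher. These counts moved with the scaling, and so did the background. With plain library totals 0 were lower and 2 higher by the call rule, 5 and 7 by p alone, and 51 lay below 0, and with follicular scaling 0 and 2, 3 and 7, and 48. Of all 14143 genes 238 were called lower and 1471 higher with library totals, and 223 and 1557 with follicular scaling. The share of all genes higher by p alone was not counted under these scalings. The network median minus that of all genes was -0.215 with TMM, -0.216 with library totals and -0.207 with follicular scaling. By p alone 5.38% of the network was then lower against 3.45% of all genes with library totals, and 3.23% against 3.06% with follicular scaling. With the muscle markers as a covariate 1 was called lower, beside 464 of all 14143 genes. By p alone 7 were then lower, 7.53% against 5.71% of all genes.

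Of the calls, 4 are described here, Hspa4, Dnaja4, Ptges3 and Bag3. Bag3, which links HSP70 to small heat shock proteins and to autophagy, was counted at 73.4, 53.9 and 66.7 CPM in Thy-Tet1+/+ and 39.9, 45.4 and 32.8 CPM in the group labelled Thy-Tet1-/-, without overlap (log2 difference -0.71 ± 0.17, unadjusted p = 0.0044, adjusted p = 0.114). Hspa4, a second HSP110, lay at -0.59 ± 0.16, which is close to the limit of the call rule. It lost the call in DESeq2 (-0.572), with RLE factors (-0.573), with at least 10 counts required in every library (-0.573) and with the replicate block (-0.569). Ptges3, the HSP90 co-chaperone p23, lay at -0.65 ± 0.21, and Dnaja4, a relative of Dnaja1, at -0.75 ± 0.24. Without Thy-Tet1+/+ replicate 2 or without replicate 2 labelled Thy-Tet1-/-, 9 network genes were called lower instead of 5. Over all genes 590 and 687 were called lower in these fits, against 518 with all libraries. Bag3 and Dnaja4 kept the call with library totals without Tg, Dnaja4 alone kept it with the muscle covariate, and none of the 4 did with plain library totals or follicular scaling.

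By function, genes lower by an unadjusted p under 0.05 made up 8 of 19 HSP90 genes and co-chaperones (median -0.33), 6 of 14 J-domain proteins (-0.30), 3 of 9 HSP70 cofactors (-0.23) and 4 of 15 subunits of the cytosolic chaperonin and prefoldin (-0.21), where 10.2% of all genes passed in this direction. The other HSP70 and HSP110 genes gave 1 of 7 and the other targets of heat shock factor 1 gave 1 of 5 (median -0.08 in both lists). Among the HSP90 partners, Stip1 (HOP), which passes clients from HSP70 to HSP90, stood at -0.57 ± 0.18 and Hsp90ab1 at -0.33 ± 0.13, both lower by that p alone, and Ahsa1 (-0.17 ± 0.11) and Chordc1 (-0.20 ± 0.18) did not pass. Of the chaperonin subunits Cct3 stood at -0.50 ± 0.15 and Tcp1 at -0.36 ± 0.14. Mitochondrial chaperones and proteases gave 0 of 15 (median -0.11), with Hspa9 at -0.32 ± 0.21, and 0 were higher. With follicular scaling, where the whole scale moves up, 0, 0, 1 and 0 genes of the first 4 lists were lower by p and 2, 0, 1 and 1 higher, and the mitochondrial median was 0.09. For the small heat shock proteins the count was 0 of 5. Hspb6 ran at 42.9, 14.7 and 67.1 CPM against 12.7, 84.4 and 10.5 CPM and Hspb7 at 22.1, 6.52 and 34.3 CPM against 2.07, 45.6 and 2.95 CPM, in each case high in the same 3 libraries as the muscle markers. Of the factors themselves 0 of 4 passed, and Hsf1 was counted at 23.6, 32.8 and 37.5 CPM against 33.1, 30.0 and 32.9 CPM (log2 difference 0.03 ± 0.18), a value that turned negative under 4 of the alternatives.

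**Figure D5:**
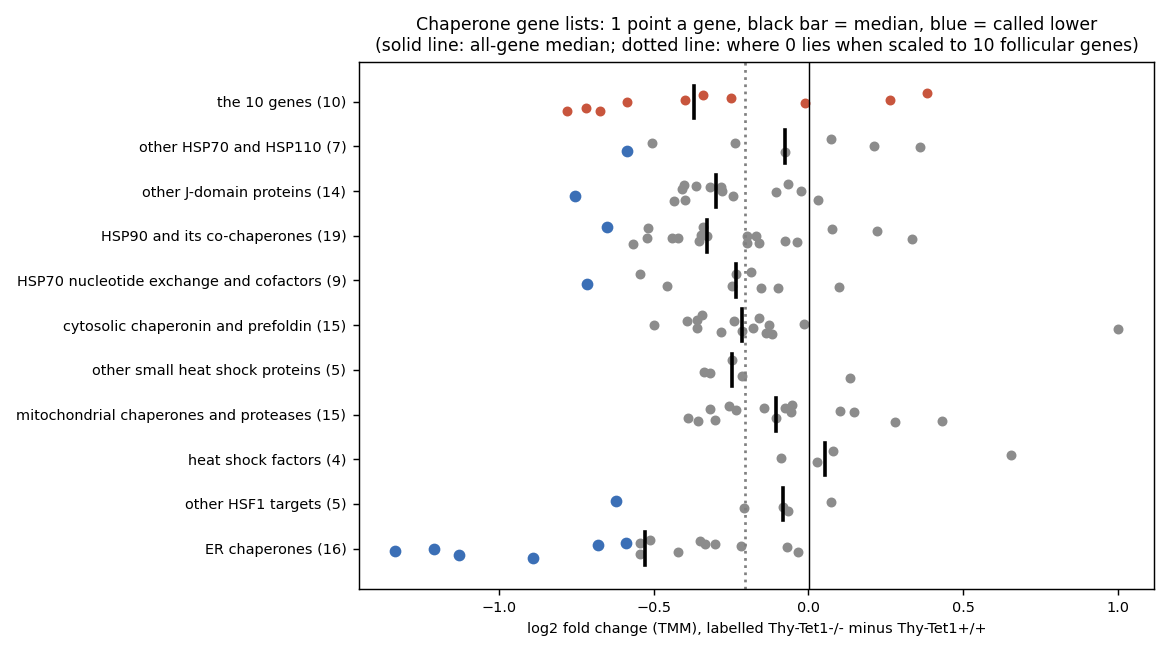
Each point is a gene's log2 fold change (libraries with the Thy-Tet1-/- label minus Thy-Tet1+/+, TMM scaling), grouped by function with the list size in brackets, the black bar marks the list median, and blue marks genes called lower. The J-domain, HSP90 and cofactor lists have medians of -0.30, -0.33 and -0.23 and the mitochondrial list -0.11, and under follicular scaling, where 0 lies at the dotted line, the medians of the cofactor and chaperonin lists (-0.03 and 0.00) lie close to it and that of the mitochondrial list above it.

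Chaperones of the endoplasmic reticulum, which form a separate system under the unfolded protein response, were listed with 16 genes. All 16 had a log2 difference below 0 (median -0.53), 6 were called lower and 11 were lower by an unadjusted p under 0.05, and with follicular scaling 14 lay below 0, 4 were called and 5 were lower by p. Over all genes 3.66% were called lower and 10.2% were lower by p. With follicular scaling 223 of 14143 were called lower and 3.06% were lower by p. Hspa5 (BiP), the HSP70 of that compartment, gave a log2 difference of -0.68 ± 0.17 (unadjusted p = 0.00515, adjusted p = 0.118), and Dnajb9, its J-domain partner, -1.33 ± 0.16 (adjusted p = 0.0555). Hsp90b1 (GRP94) stood at -0.07 ± 0.17. A heat shock element of 2 units was in 1 of the 13 matched promoter windows of this list, or 7.69%, against 18 of 92 windows, or 19.6%, of the wider cytosolic and mitochondrial network and 8 of 13, or 61.5%, of the 10 genes.

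Across the 6 libraries the mean log2 level of the 10 genes was followed most closely, among 9934 genes with a mean of at least 10 CPM, by Dysf (Pearson's r = 0.993), Pcnp (0.992), Rwdd1 (0.992), Ddx56 (0.990), Plekhf1 (0.990), Slc10a7, Thop1, Glo1, Pomt2 and Tmem263 (0.984). None of these 10 was in the network lists. Dysf, which encodes the membrane-repair protein dysferlin, was counted at 83.8, 46.2 and 71.5 CPM in Thy-Tet1+/+ and 39.3, 49.3 and 41.4 CPM in the group labelled Thy-Tet1-/-, so that it shared the low Thy-Tet1+/+ replicate 2. These correlations rest on 6 libraries, which differ in depth and in the tissue around the gland, and are given as a description. Against the mean of the other 9, the members themselves gave r = 0.942 for Dnaja1, 0.908 for Hsp90aa1 and 0.895 for Hsph1, down to 0.315 for Hspd1, -0.533 for Hspb1 and -0.635 for Hspe1.

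The cold-inducible RNA-binding proteins, which respond to temperature in the opposite sense to heat shock genes, gave 1 gene above 0 and 1 below. Cirbp was counted at 29.3, 61.4 and 44.5 CPM in Thy-Tet1+/+ and 65.4, 60.4 and 78.0 CPM in the group labelled Thy-Tet1-/- (log2 difference 0.59 ± 0.26, unadjusted p = 0.0617). Rbm3 gave 93.0, 85.3 and 72.9 CPM against 49.4, 45.2 and 77.2 CPM, with a difference of -0.55 ± 0.22 (unadjusted p = 0.044, adjusted p = 0.248). Both overlapped between the groups.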

How the data were processed

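RNA sequencing libraries of thyroid from 3 Thy-Tet1+/+ and 3 Thy-Tet1-/- mice were grouped by the genotype and title in the labels, which number separate biosamples. The authors deposited a table of raw counts per gene, with 1 column per library and no normalisation. The submitters' processing notes name the genome build mm10, and the aligner, the counter and its strand setting are not given in the sources used here. For this work 27 gene symbols that had been turned into dates were restored, and 0 value columns were left unused. Libraries held 8867683 to 19950898 counts, 3 counts being 0.15 to 0.338 CPM. No pair of libraries held identical values.

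Counts were scaled by TMM, filtered with filterByExpr (14143 genes of 21878 kept) and tested with the quasi-likelihood F test of edgeR 4.0.16 in R 4.3.3, with Benjamini-Hochberg adjustment over all genes tested. SE is the log2 fold change divided by the square root of F, and no test is given for the 10 genes. Every unadjusted or adjusted p printed comes from that fit unless DESeq2 is named, and it measures only the spread between these libraries. Alternatives were DESeq2 1.42.0, RLE factors, library totals with and without Tg, scaling to 10 follicular marker genes, 2 other filters, a replicate block, a skeletal muscle covariate, leaving out each library, summing Hspa1a with Hspa1b, and a 3-unit element. The count by p alone, with no limit on the fold, was added after seeing the data. The genes described, the gene lists and the markers were chosen with earlier results of these data known.

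Genes named are the 10 chaperones, a fixed set of partners, regulators and markers, up to 4 called genes of each list by smallest p and the 10 most correlated genes. Further list members (Cct3, Tcp1, Hspb6, Hspb7, Dnajb9, Hsp90b1, Fosb, Atf3 and Per1) were named after their values were seen. Positions, exon overlaps and 50-base words shared with other genes are from GENCODE M21 on mm10, and promoters are from RefSeq (GRCm38.p6). The main edgeR fit and the DESeq2 fit were tested on simulated counts, and the other settings and the descriptive counts were not. Gene lists were compared by counts and medians only. A called gene of the lists is not reported here by name.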

Additional observations from a re-analysis of the deposited data

How the results depend on the processing

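Scaling moved most counts. The median log2 difference of the 10 genes was -0.37, and -0.182 with library totals without TMM and -0.164 with follicular scaling. The genes of the 10 without overlap were 3, and 0 and 1 under these, where the share over all genes was not counted. A heat shock element was found for 7 genes with 2 units and 3 with 3. Network calls, 5, were 2 (both higher) under each, 3 with library totals without Tg and 1 with the muscle covariate, and the network genes lower by p alone, 23, were 5, 3, 16 and 7. Over all genes 518 were called lower and 783 higher, against 238 and 1471 with library totals, 337 and 1143 without Tg in them, and 223 and 1557 with follicular scaling. The causes were not tested.

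Signs reversed for Ahsa1 (0.015), Serpinh1 (0.097) with library totals, for Serpinh1 (0.023) without Tg in them, for Ahsa1 (0.032), Chordc1 (0.017) and Serpinh1 (0.129) with follicular scaling, and for Hsf1 (-0.051), Cryab (0.034), Serpinh1 (0.059) and Acta1 (0.086) with the muscle covariate. Leaving out 1 library gave 3 to 6 of the 10 genes without overlap and 4 to 9 network calls, the highest of both without Thy-Tet1+/+ replicate 2, and log2 differences of -0.139 to 0.176 for Hsf1, -0.633 to 0.05 for Cryab, -0.203 to 0.144 for Serpinh1, -1.011 to 0.328 for Fos and -6.062 to 0.317 for Acta1. Each of these 5 changed sign among the 6 fits. Over all genes 504 to 687 were called lower and 570 to 859 higher in the 6 fits. Groups with fewer libraries separate more easily for any gene, so nothing is read from the rise in genes without overlap.

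With the replicate block the median of the 10 genes was -0.351, 4 network genes were called lower and 17 (18.3%) were lower by p alone. Over all genes 431 were then called lower and 6.56% were lower by p alone. Same-numbered libraries deviated from their group means with correlations of -0.167, -0.372 and -0.193. These were not set beside libraries of unlike number, so they do not settle whether the numbers pair the libraries. Below an adjusted p of 0.05 there were 16 genes in edgeR and 1192 in DESeq2 (0 and 13 in the network). For the single genes with a test, 283 of 345 values under alternatives kept direction and call. Depth limits the shallowest library, Thy-Tet1+/+ replicate 1, most, where Hspa1a had 295 counts.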

Other observations

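Several immediate early genes, a class induced within minutes by growth factors and other stimuli, set Thy-Tet1+/+ replicate 2 apart in the other direction. Fos was counted at 9.14, 31.6 and 7.10 CPM in Thy-Tet1+/+ replicates 1 to 3 and at 6.59, 11.0 and 13.0 CPM in the group labelled Thy-Tet1-/-, Fosb at 1.31, 6.31 and 0.333 against 0.599, 0.533 and 0.508 CPM, and Atf3 at 0.593, 9.52 and 2.05 against 1.53, 2.37 and 1.68 CPM. The library that was lowest of the 6 for Hspa8, Dnajb1 and Hspd1 was thus the highest for Fos, Fosb and Atf3. Among the 13 listed genes, Junb, Ier2, Nr4a1 and Klf2 had their highest value in another library. Over 13 listed genes 3 were called lower (Dusp1, Klf2 and Klf4) and 1 higher (Junb, 1.10 ± 0.25 on the log2 scale), by the rule that calls 3.66% of all genes lower and 5.54% higher. Their part in the chaperone levels was not tested.

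Transcripts of the circadian clock, which also times the expression of many chaperone genes, separated the groups. Of 14 tested, 4 were called lower and 8 higher, by the rule that calls 3.66% of all genes lower and 5.54% higher. Among them were Dbp at 36.5, 20.8 and 27.2 CPM against 223, 256 and 164 CPM (2.93 ± 0.26, adjusted p = 0.0466 in edgeR) and Per1 at 104, 110 and 119 against 50.5, 50.8 and 39.8 CPM. The time of day at which glands were taken is not given in the sources used here, so time of collection and genotype cannot be told apart for these genes, and no value for the chaperones at another time was analysed.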
